A study of Homo sapiens with 4 samples.

Results

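Peaks of acetylated histone H3 at cadherin and neuronal adhesion genes are described here. Chromatin immunoprecipitation and sequencing gave 1 library from H929 cells that overexpressed AIMP1 and 1 library from wild-type H929 cells. H929 is a line derived from a human multiple myeloma, a cancer of plasma cells. AIMP1 is a scaffold protein that helps hold several aminoacyl-tRNA synthetases together. How the overexpression was made, and whether it rests on 1 clone, is not given in the sources used here. Cells of both groups were fixed with formaldehyde and precipitated with the same kind of antibody, and an input library of each group was not analysed here. Members were the peaks whose annotated gene symbol starts with CDH and a digit, PCDH, CNTN, NLGN, NRXN, LRRTM, FAT and a digit, TENM or LRRC4. That gave 91 of 14608 peaks: 28 of 9780 in the overexpression list and 63 of 4828 in the wild-type list. They belonged to 35 gene symbols, 20 with an overexpression peak and 24 with a wild-type peak, 9 of them with both. The rule also takes in LRRC40 to LRRC49, leucine-rich repeat genes that share only the start of their name with the synaptic LRRC4 family. These gave 4 overexpression peaks and 1 wild-type peak, and counts without them are given where they matter.

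Cadherins join cells through calcium-dependent contacts between like molecules, and their cytoplasmic tails bind catenins, which connect them to actin. Protocadherins and the giant FAT cadherins carry the same extracellular repeats with other tails. Contactins, neurexins, neuroligins, teneurins, LRRTM proteins and the LRRC4 family mostly act in neurons, where neurexins on the sending side of a synapse bind neuroligins and LRRTM proteins on the receiving side. Many of these genes are very long and lie beside wide stretches with few genes. Acetylation of histone H3 marks active promoters and enhancers, so a peak at a gene's start and a peak far inside or outside it are kept apart below.

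With 1 library per group there was no replicate and no test across samples, and no p-value is given for a difference between the groups. Both the fold enrichment and the p of a peak are the authors' own, over a background that the files leave undescribed. Each places a peak among those of the same list and gives no direction across lists. A gene without a listed peak had none at the authors' threshold, which does not show that the mark was absent. The overexpression list as a whole had more, wider and stronger peaks (median fold 7.34, median width 1621 bp) than the wild-type list (median fold 4.47, median width 828.5 bp). As a check of the cell type, 10 plasma cell marker genes were looked up: overexpression promoter peaks were listed at 8 and wild-type ones at 1. Over all protein-coding genes the shares were 33.9% and 7.40%, so the wild-type count was near the background and does not bear on the cell type. Any wild-type peak was listed at 6 of the 10, while the whole wild-type list named 3491 gene symbols. The share of all protein-coding genes with any wild-type peak was not computed, so no cell type is read from that count. Of 10 neuronal marker genes, SYT1 had an overexpression promoter peak and another gene, SLC17A7, a wild-type one, and of 5 epithelial marker genes none had any peak in either list. No overexpression peak was listed at 5 stromal and endothelial or at 6 T, NK and monocyte marker genes. In each of these lists 1 gene had wild-type peaks, all outside promoters: COL1A2 (fold 4.15) and CD3E (highest fold 5.69). The whole overexpression list named 8091 gene symbols, but the share of all protein-coding genes with any overexpression peak was not computed either. With 5 to 10 genes a list, no cell type is excluded by the neuronal, epithelial, stromal and immune marker counts.

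Few adhesion genes had a peak at their start. By the authors' annotation, which calls a peak within 3 kb of any transcript start a promoter peak, 10 of 123 protein-coding adhesion genes (LRRC40 to LRRC49 left out) had one in the overexpression list. That is 8.13% (exact 95% interval 3.97 to 14.4), against 33.9% of all 19974 protein-coding genes. The wild-type list had one at 2 of the 123, CDH9 and PCDH9 (1.63%, 0.198 to 5.75), against 7.40% of all genes. Clustered protocadherins, 53 of the 123, had none, and without them the shares were 10 of 70 (14.3%, 7.07 to 24.7) in the overexpression list and 2 of 70 (2.86%, 0.348 to 9.94) in the wild-type list.

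A narrower measure came from sequence. RefSeq start windows, which run from 250 bases before to 50 bases after a transcription start, were matched by symbol for 100 of these genes. FAT3, FAT4 and NRXN2 have no window here, and those of NLGN2 and PCDH1 stand at other starts than their peaks, so this measure leaves out some genes with a promoter peak. The overexpression list covered the window of 3 of these 100 genes (3.0%, 0.623 to 8.52), CNTN5, PCDH9 and TENM3, against 41.3% of the 15843 protein-coding genes with a window. The wild-type list covered 1 of them, PCDH9 (1.0%, 0.0253 to 5.45), against 5.67% of all genes. All intervals given here cover counting error over peaks or genes only. These 3 windows, and that of CDH9 for contrast, are shown because they are where the promoter results turn. They are RefSeq sequences of GRCh38.p14, 5′ to 3′ on the gene's own strand: PCDH9 at chr13:67230287-67230586 (minus strand), CNTN5 at chr11:99020699-99020998 (plus), TENM3 at chr4:182448766-182449065 (plus, a start inside the gene) and CDH9 at chr5:27038537-27038836 (minus). Capitals mark the GC box GGGCGG, the CCAAT box and TATAAA, each searched on both strands, with no overlap between matches in these windows.

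PCDH9: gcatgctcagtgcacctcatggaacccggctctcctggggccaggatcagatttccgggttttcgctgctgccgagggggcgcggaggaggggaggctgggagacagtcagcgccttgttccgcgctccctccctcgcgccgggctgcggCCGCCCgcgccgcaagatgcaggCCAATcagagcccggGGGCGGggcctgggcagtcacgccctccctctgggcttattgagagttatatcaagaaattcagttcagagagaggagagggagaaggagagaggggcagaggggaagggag

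CNTN5: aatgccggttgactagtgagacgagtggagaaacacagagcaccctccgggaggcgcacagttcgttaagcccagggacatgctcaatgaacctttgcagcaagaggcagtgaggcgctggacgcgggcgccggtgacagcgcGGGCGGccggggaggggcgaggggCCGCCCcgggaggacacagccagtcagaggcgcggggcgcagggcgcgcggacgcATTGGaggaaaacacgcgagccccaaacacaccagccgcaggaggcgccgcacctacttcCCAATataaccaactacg

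TENM3: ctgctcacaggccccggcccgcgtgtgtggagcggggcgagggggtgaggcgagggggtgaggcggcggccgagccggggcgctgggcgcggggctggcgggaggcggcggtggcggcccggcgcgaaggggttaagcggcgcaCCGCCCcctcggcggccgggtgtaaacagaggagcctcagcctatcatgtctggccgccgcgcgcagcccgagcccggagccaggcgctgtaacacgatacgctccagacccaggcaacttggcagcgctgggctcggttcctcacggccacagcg

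CDH9: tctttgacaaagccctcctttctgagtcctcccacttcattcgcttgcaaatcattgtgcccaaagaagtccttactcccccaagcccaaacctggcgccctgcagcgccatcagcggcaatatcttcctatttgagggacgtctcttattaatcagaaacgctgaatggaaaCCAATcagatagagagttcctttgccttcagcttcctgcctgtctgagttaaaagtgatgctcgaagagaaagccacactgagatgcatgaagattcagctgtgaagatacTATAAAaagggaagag

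The windows of PCDH9, CNTN5 and TENM3 had a GC content of 65.7%, 66.0% and 75.7% and held 20, 30 and 39 CpG dinucleotides. That of CDH9 had 46.7% GC and 7 CpG. It lay 150 kb from the nearest overexpression peak and 2.22 kb from the nearest wild-type peak. PCDH9 and CNTN5 had 2 GC boxes each, TENM3 had 1, and CDH9 had none. Of the windows printed above only that of CDH9 carried TATAAA. The CCAAT box was found 1 time each in CDH9 and PCDH9, 2 times in CNTN5 and not in TENM3. GC boxes occurred in 23.5% of the 136 start windows of these adhesion genes (several starts per gene counted), against 56.3% of all 22199 windows. CCAAT occurred in 39.7% against 34.7%, TATAAA in 11.8% against 9.47%, the cyclic AMP response element TGACGTCA in 1.47% against 2.26%, and TCAGCACC, a part of the site of the neuronal gene repressor REST, in 1.47% against 1.65%.

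The adhesion genes as a group had start windows poor in GC, with a median of 48.3% against 62.3% over all protein-coding genes. Clustered protocadherins made up 47 of the 100 genes, and their median was 39.7%. In a split chosen after the values were seen, 24 adhesion genes had windows of 60% GC or more, and the overexpression list covered 3 of them (12.5%, 2.66 to 32.4) against 52.3% of all genes in that class. Under 60% GC it covered 0 of 76 (interval up to 4.74%) against 25.1% of all genes. In the wild-type list the covered numbers were 1 of 24 (4.17%) against 6.66% of all genes, and 0 of 76 against 4.22%.

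Counted by peak, 17 of the 28 overexpression peaks were at promoters. This is 60.7% (40.6 to 78.5), against 84.9% of all peaks in the list. In the wild-type list 3 of 63 were, or 4.76% (0.993 to 13.3), against 36.0% of all peaks. Without LRRC40 to LRRC49 the counts were 13 of 24 (54.2%) and 2 of 62 (3.23%). Outside promoters the overexpression list had 5 intronic and 3 distal intergenic adhesion peaks, and the wild-type list had 34 and 24. Intronic peaks were 17.9% of the overexpression adhesion peaks, against 4.95% of all overexpression peaks, and 54.0% of the wild-type adhesion peaks, against 30.2% of all wild-type peaks.

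**Figure D1:**
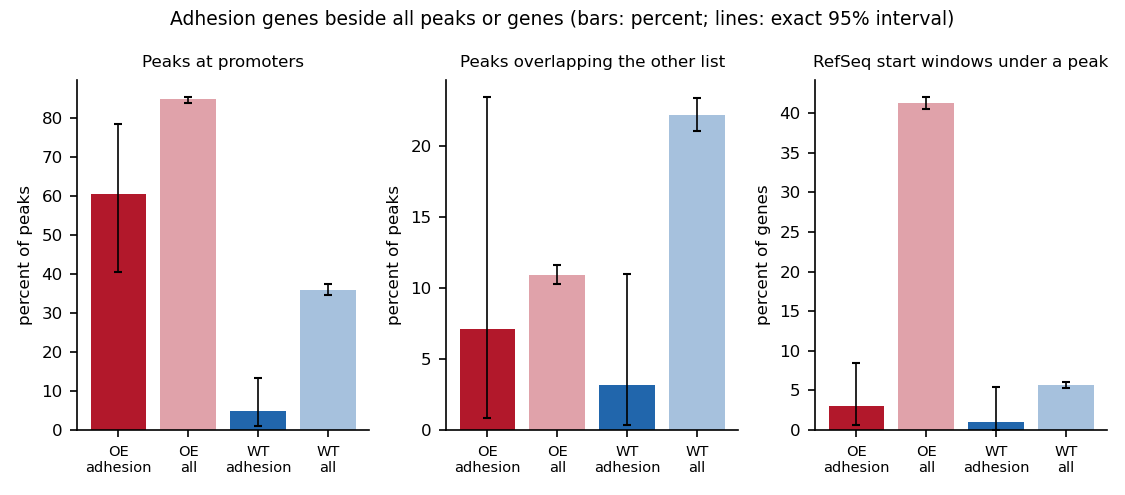
Percent of peaks at promoters (left), percent of peaks that overlap the other list (middle) and percent of genes whose RefSeq start window lies under a peak (right), for the overexpression (OE, red) and wild-type (WT, blue) libraries. Dark bars are adhesion peaks or genes and pale bars all of them, lines are exact 95% binomial intervals, and the largest gap is at start windows in the overexpression list, 3.0% against 41.3%.

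Counted by gene, promoter peaks were listed at 15 members in either library. Of these, 12 had it in the overexpression list only (80.0%, against 79.5% of the 7960 genes that had one in either list), 2 in both (13.3%, against 14.6%) and 1 in the wild-type list only (6.67%, against 5.87%). These shares were near those of all genes. The gene in the wild-type list only was the name match LRRC43, and without LRRC40 to LRRC49 the counts were 8, 2 and 0 of 10 (80.0%, 20.0% and 0.0%). With any annotated peak counted, 11 of 35 members were in the overexpression list only (31.4%, against 63.4% of all genes), 9 in both (25.7%, against 21.4%) and 15 in the wild-type list only (42.9%, against 15.2%). Without LRRC40 to LRRC49 the last 3 counts were 7, 9 and 14 of 30.

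**Figure D2:**
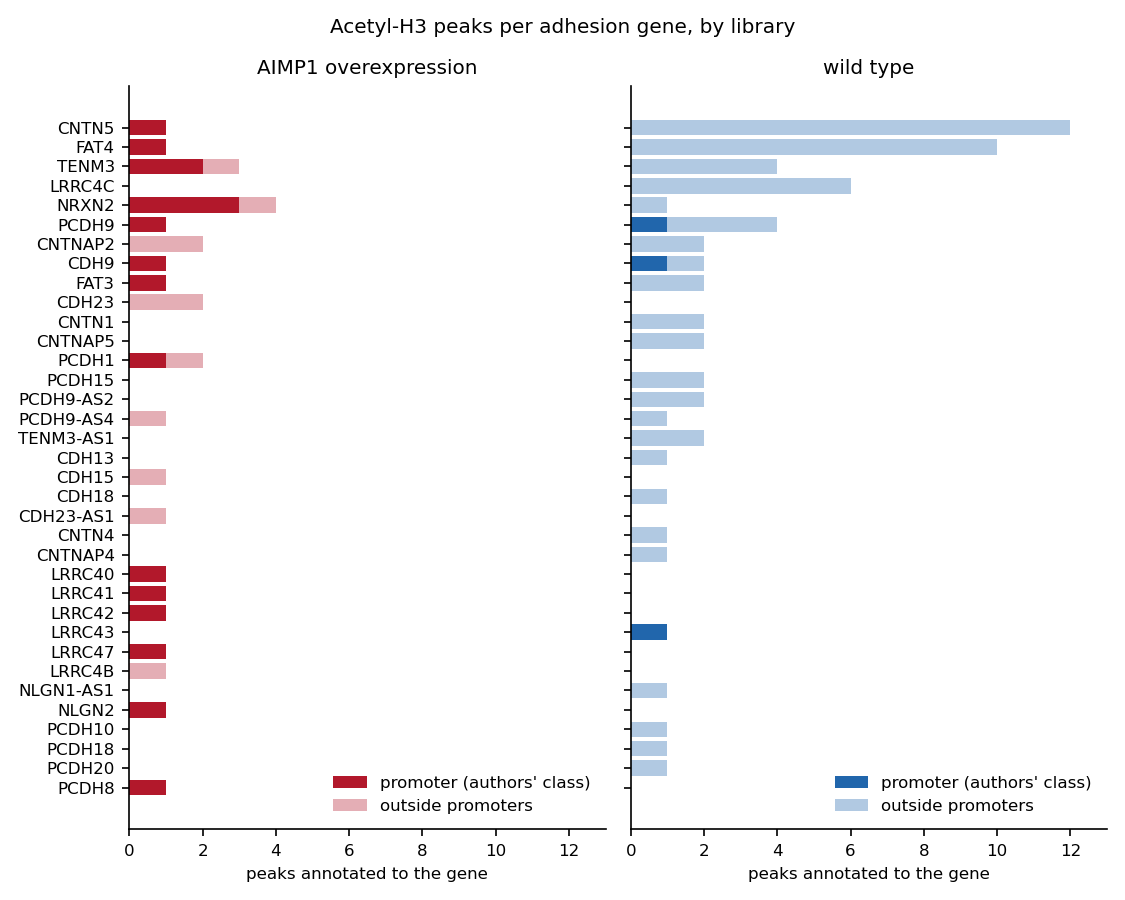
Number of acetyl-H3 peaks annotated to each of the 35 member genes in the overexpression library (left, red) and the wild-type library (right, blue), with promoter peaks in the dark shade and other peaks in the pale shade. CNTN5 and FAT4 have 1 overexpression peak each, at the promoter, and 12 and 10 wild-type peaks, none at the promoter.

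Of 19 protein-coding classical cadherins, CDH9 and CDH15 had an overexpression peak, and CDH9, CDH13 and CDH18 a wild-type one. CDH9 encodes a type II cadherin of neurons. Its single overexpression peak (chromosome 5, 26872050 to 26888307) was 16258 bp wide, at rank 4 of 9780 by width. Its fold was 9.43, and its p of 9.89e-122 stood at rank 15. The authors placed it as a promoter peak 2526 bp from the start of a short transcript, in the class 2 to 3 kb from a start, whose 142 overexpression peaks had a median width of 1331 bp. Against the RefSeq gene it lay over the far end of CDH9, 150 kb from the gene's outermost start. Within 1 Mb of CDH9 the overexpression list had 2 more peaks, both broad and both annotated to PURPL, a long noncoding RNA gene. One was 9081 bp wide (fold 8.61) and the other 14147 bp (fold 13.65). They lay 562 and 575 kb from the CDH9 peak. None of the 3 overlapped a wild-type peak, although the wild-type list also had 3 peaks within 1 Mb of CDH9, and the widest wild-type peak anywhere was 11900 bp.

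In the wild-type list CDH9 had a peak 2269 bp from its start (27035365 to 27036314, fold 4.7, p 0.000207) and one in intron 2 (fold 5.22, p 0.000456). The nearest of these was 78.9 kb from the broad overexpression peak, so CDH9 counts as a gene with promoter peaks in both lists although the places differ. CDH15, the cadherin of muscle, had 1 intronic overexpression peak (fold 5.24, p 3.74e-05). CDH13, a cadherin anchored by a lipid instead of a membrane-spanning tail, had 1 intronic wild-type peak (fold 4.02). CDH18 had 1 wild-type peak, 732 kb from an annotated CDH18 start (fold 5.02, p 3.19e-06). CDH1 and CDH2, which encode E-cadherin and N-cadherin, had no listed peak in either library. Among the 4 other cadherins, CDH23, a cadherin of inner ear hair cells, had 2 overexpression peaks, one 19.1 kb before a start (fold 11.09, p 6.65e-09) and one over exon 23 (fold 6.81, p 0.000865), and no wild-type peak. Its antisense RNA CDH23-AS1 had 1 intronic overexpression peak (fold 4.19).

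The 53 protein-coding clustered protocadherins, which give single neurons distinct surface identities, had no annotated peak in either library. Of 13 other protocadherins, PCDH1, PCDH8 and PCDH9 had an overexpression peak, and PCDH9, PCDH10, PCDH15, PCDH18 and PCDH20 a wild-type one. PCDH1, a protocadherin of the airway epithelium among other places, had an overexpression peak over its outermost start (fold 8.91, p 6.4e-07) and another classed as downstream (fold 7.86). PCDH8 had 1 overexpression peak 2031 bp before its start (fold 8.33, p 1.81e-08). The wild-type peaks of PCDH10, PCDH15, PCDH18 and PCDH20 were outside promoters, with folds of 4.17 to 5.14 and p-values of 0.000287 to 0.000984.

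PCDH9 was the one member whose promoter peaks overlapped between the libraries. The overexpression peak (chromosome 13, 67229653 to 67231801) was 2149 bp wide (fold 4.91, p 2.72e-06) and ranked 8969 of 9780 by fold. The wild-type peak (67230116 to 67231033) lay inside it and was 918 bp wide (fold 7.16, p 3e-08), at rank 22 of 4828. Both covered the PCDH9 window printed above. The peak was thus near the top of the wild-type list and in the lower part of the overexpression list by fold, which is a statement on each list and not a measured change. A second shared place lay inside PCDH9, in an intron of the antisense RNA PCDH9-AS4 (fold 5.12 in overexpression, 4.26 in wild type). Further wild-type peaks in PCDH9, 3 annotated to it and 2 to PCDH9-AS2, had folds of 3.49 to 4.72 and lay 186 to 514 kb from any overexpression peak.

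These were the shared peaks of the group: 2 of 28 overexpression peaks (7.14%, 0.877 to 23.5), against 10.9% of all overexpression peaks, and 2 of 63 wild-type peaks (3.17%, 0.387 to 11), against 22.2% of all wild-type peaks. Of all shared wild-type peaks most were at promoters (985 of 1074), and the wild-type adhesion list had 3 promoter peaks in all.

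Among FAT cadherins and contactins, FAT4 and CNTN5 each had a single overexpression peak, at the promoter, and many wild-type peaks elsewhere. FAT4, a giant cadherin of planar cell polarity, had 1 overexpression peak over its outermost start (chromosome 4, 125314500 to 125316123, fold 5.85, p 5.7e-09). It had 10 wild-type peaks with folds of 3.31 to 5.66 and widths of 519 to 1009 bp, which stretched over 1.25 Mb. The authors' p was 2.84e-06 and 2.42e-05 at those 60.6 and 24.3 kb before the gene. At the rest it was 0.000228 to 0.00076, in a list whose largest p was 0.001. Only 1 of the 10 lay inside the gene, in intron 1 and 6551 bp from the start. The other 9 lay between genes, 4 before FAT4 at 24.3 to 185 kb and 5 beyond it, at 426 to 938 kb from the start of a short transcript inside the gene. Their strongest member, 60.6 kb before FAT4, reached a fold of 5.66 (p 2.84e-06). None of the 10 overlapped an overexpression peak. FAT3 had 1 overexpression peak, 617 kb inside the RefSeq gene and 1120 bp before an internal transcript start (fold 5.76, p 4.17e-05), and 2 wild-type peaks, one intronic (fold 4.65) and one 703 kb before an annotated start (fold 5.14). FAT1 and FAT2 had no listed peak.

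CNTN5 encodes a contactin, a lipid-anchored immunoglobulin protein of neurons. Its 1 overexpression peak lay over the start (chromosome 11, 99019737 to 99021707, fold 4.39, p 0.000418) and ranked 9398 of 9780 by fold. Its 12 wild-type peaks lay outside promoters, 6 inside the gene and 6 before it, over a stretch of 1.71 Mb with spacings of 50 to 295 kb. Their folds were 2.96 to 6.2, their widths 547 to 1412 bp and their p-values 0.000148 to 0.000923, in a list whose largest p was 0.001. The highest fold, 6.2, belonged to a peak 1133424 bp before the start, which the authors annotated to CNTN5 and to an intron of another transcript. The nearest wild-type peak to the overexpression promoter peak was 76.3 kb away. CNTN1 had 2 intronic wild-type peaks (folds 5.71 and 5.47) and CNTN4 had 1 (4.56), and neither had an overexpression peak.

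**Figure D3:**
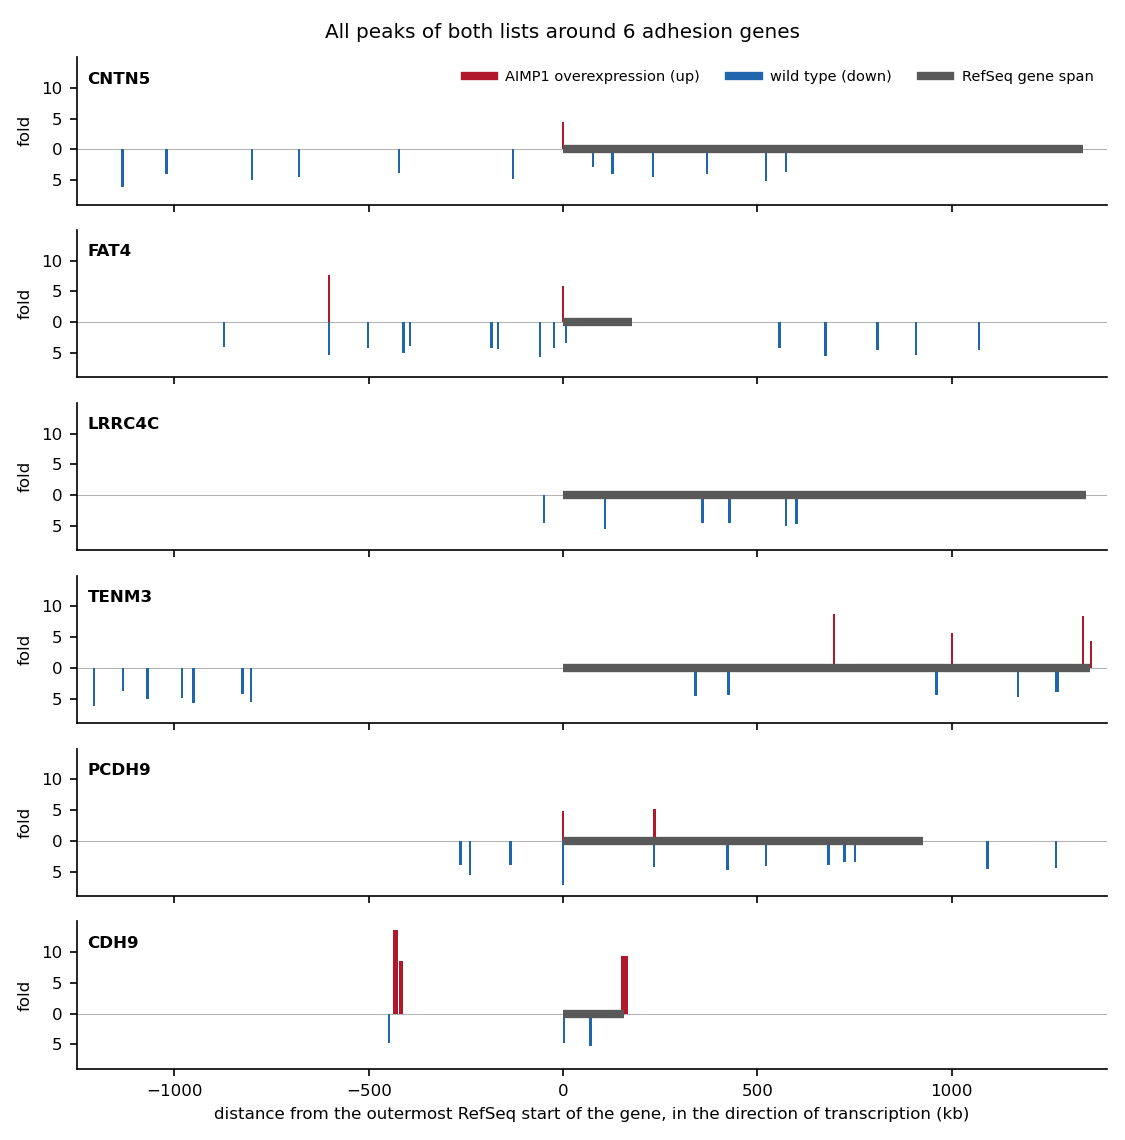
All listed peaks of both libraries around CNTN5, FAT4, LRRC4C, TENM3, PCDH9 and CDH9, whichever gene they were annotated to, by distance in kb from the outermost RefSeq start in the direction of transcription, with overexpression folds drawn upward (red) and wild-type folds downward (blue). Bars under 6 kb wide are drawn 6 kb wide, and the grey bar is the RefSeq gene. Red bars stand at the start of CNTN5, FAT4 and PCDH9, and blue bars are spread widely inside and outside the genes.

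Among contactin-associated proteins, some of which help build the contact between axon and myelin, CNTNAP2 had 2 peaks in each list and none at a promoter. Its overexpression peaks had folds of 6.81 and 5.48 and its wild-type peaks 4.06 and 5.21, and none overlapped a peak of the other library. CNTNAP4 and CNTNAP5 had 1 and 2 distal wild-type peaks with folds of 3.44 to 4.57, and no overexpression peak.

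At the synaptic receptor genes the overexpression peaks were mostly of the authors' promoter class, though not all of these lay over a start. NRXN2, a neurexin, had 4 overexpression peaks, more than any other member in that list. That over the outermost start (chromosome 11, 64722845 to 64723893) had a fold of 12.79, the highest of all 28, and a p of 2.06e-10. Another 2, with folds of 5.36 and 7.86, lay 76.6 and 68.6 kb inside the gene, 1313 and 1482 bp from internal transcript starts, and 1 was intronic (4.07). Its 1 wild-type peak was intronic (64687134 to 64688859, fold 5.55, p 1.42e-06) and lay 32.5 kb from the nearest overexpression peak. NLGN2, the neuroligin of inhibitory synapses, had 1 overexpression peak over its start (chromosome 17, 7404253 to 7405769, fold 7.34, p 6.85e-08) and no wild-type peak, and NLGN1-AS1, antisense to another neuroligin gene, had 1 wild-type peak (3.44). No peak was annotated to any of the 4 LRRTM genes. LRRC4B had 1 overexpression peak 4578 bp before a start (fold 6.81, p 1.26e-07). LRRC4C, which encodes the netrin-G ligand NGL-1, had no overexpression peak and 6 wild-type peaks over 0.651 Mb, 5 of them inside the gene. Their folds were 4.47 to 5.58, and the nearest overexpression peak of any gene was 1802336 bp away. The authors' p was 3.6e-07 at 1 of the 6 and 0.000282 to 0.000929 at the rest.

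TENM3, a teneurin that guides visual wiring, was the one teneurin with peaks. Its 3 overexpression peaks had folds of 8.77, 5.76 and 8.38, and its 4 wild-type peaks, all intronic, had folds of 4.33, 4.72, 3.88 and 3.99. Of the overexpression peaks, 2 covered internal transcript starts and began 696536 and 1000320 bp inside the RefSeq gene, and the other was in intron 24. No overexpression peak of TENM3 came nearer to a wild-type peak than 38.7 kb. The antisense gene TENM3-AS1 had 2 wild-type peaks (folds 4.57 and 4.47), which lie inside the RefSeq span of TENM3.

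Promoter class and gene start were not the same thing for these genes. Of the 17 overexpression promoter peaks, 11 lay within 3 kb of the outermost RefSeq start of their gene, and 6 (at CDH9, FAT3, TENM3 and NRXN2) lay 68.6 kb or more inside it. In the wild-type list 2 of 3 lay within 3 kb of that start, at CDH9 and PCDH9. The name matches LRRC40, LRRC41, LRRC42 and LRRC47 had 1 overexpression peak each over the start, with folds of 5.68, 12.05, 6.40 and 8.91. LRRC43 had 1 wild-type peak 29.4 kb inside the gene (fold 4.37).

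**Figure D4:**
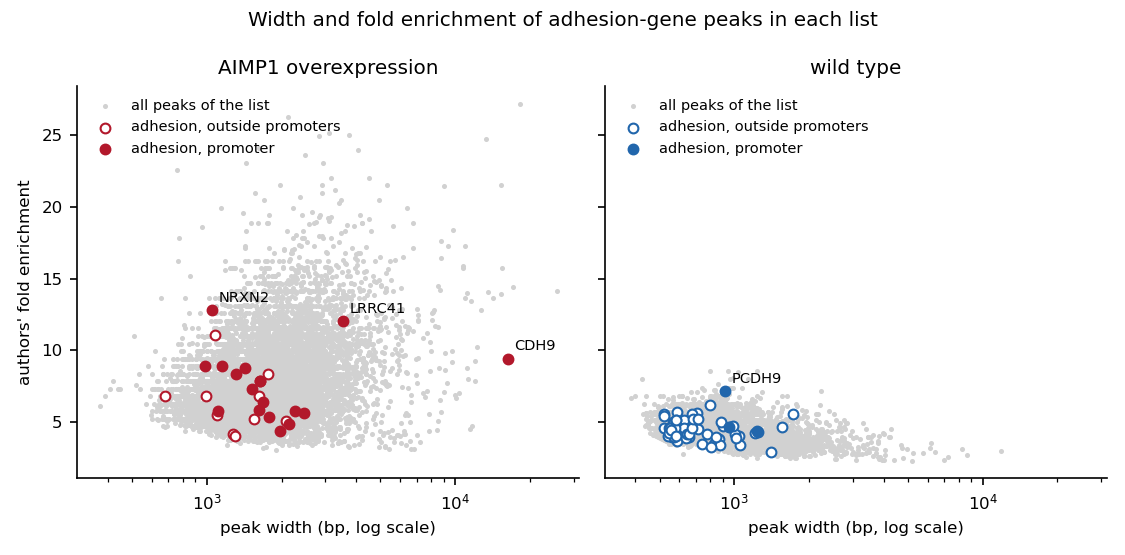
Peak width in bp (log axis) against the authors' fold enrichment for adhesion peaks at promoters (filled) and elsewhere (open), over all peaks of the same list in grey, with the overexpression library left and the wild-type library right. At 16258 bp the CDH9 peak is the widest adhesion peak in the left panel, and PCDH9 at a fold of 7.16 is the highest adhesion peak in the right panel.

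In fold the adhesion peaks were near the rest of their own list. Overexpression adhesion peaks had a median fold of 6.81 and a median width of 1587.5 bp, against 7.34 and 1621 bp over all overexpression peaks. At their promoters the median fold was 7.34, against 7.65 over all overexpression promoter peaks. Wild-type adhesion peaks had a median fold of 4.57 and a median width of 674 bp, against 4.47 and 828.5 bp over all wild-type peaks. A p of at most 1e-05 was reached by 19 of 28 overexpression adhesion peaks (67.9%, against 67.1% of the list) and by 5 of 63 wild-type ones (7.94%, against 11.2%). The 5 were at PCDH9, LRRC4C, NRXN2, FAT4 and CDH18. The wild-type peaks outside promoters stood out by distance. Their median distance to a start was 163 kb, against 27 kb over all 3089 wild-type peaks outside promoters, while the 11 overexpression ones had 15.7 kb against 14.8 kb. Of the 60 wild-type ones, 12 were annotated to CNTN5, 10 to FAT4 and 6 to LRRC4C. More than 100 kb from a start lay 9, 7 and 5 of these. The median without these genes was not computed.

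Inside gene spans of all lengths, the density of wild-type peaks at adhesion genes was close to that at all protein-coding genes. Only 32 of the 63 wild-type adhesion peaks lay inside the span of the gene they were annotated to, and peaks between genes are not counted here. Inside the merged RefSeq spans of 123 adhesion genes, 31.0 Mb in all, lay 8 overexpression peaks outside promoters, or 0.258 per Mb (exact Poisson interval 0.111 to 0.508), and 36 wild-type ones, or 1.16 per Mb (0.813 to 1.61). Over all protein-coding genes the densities were 0.511 overexpression and 1.1 wild-type peaks per Mb. For genes of 500 kb or more, a limit set after the data were seen, the 21 adhesion genes had 0.0836 overexpression (0.0101 to 0.302) and 1.3 wild-type peaks per Mb (0.88 to 1.84). The other 293 genes of that length had 0.143 overexpression and 0.834 wild-type peaks per Mb (0.722 to 0.959). These intervals cover counting error only and treat peaks as independent. At 500 kb or more the wild-type ones overlap, although the adhesion value of 1.3 lies above 0.959, the upper limit for the other genes. A few genes held many of the 31 wild-type peaks behind that value: 6 were annotated to CNTN5, 5 to LRRC4C, 4 to TENM3 and 3 to PCDH9. For comparison, 17 immunoglobulin adhesion genes of any length had 1.35 wild-type peaks per Mb (0.673 to 2.41), and 20 other long genes 0.866 (0.566 to 1.27).

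**Figure D5:**
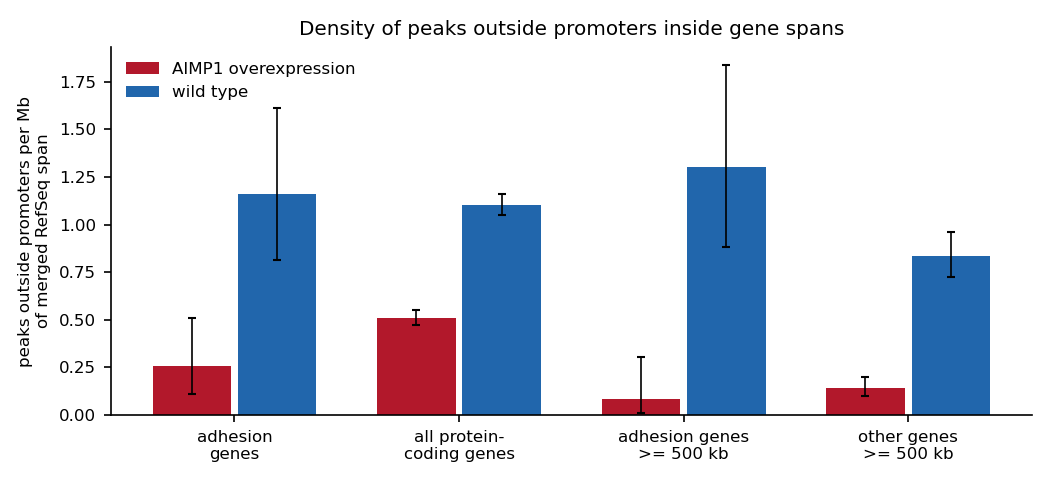
Peaks outside promoters per Mb of merged RefSeq gene span in the overexpression (red) and wild-type (blue) libraries, for adhesion genes, all protein-coding genes, and those of 500 kb or more, with exact 95% Poisson intervals. Adhesion genes had 1.16 wild-type peaks per Mb, against 1.1 over all protein-coding genes, and those of 500 kb or more had 1.3, against 0.834 at other genes of that length. Of the 31 wild-type peaks in the long adhesion genes, 6 were annotated to CNTN5 and 5 to LRRC4C.

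By chromosome, 50 of 63 wild-type adhesion peaks lay on chromosomes 4, 5, 11 and 13 (79.4%, against 29.8% of all wild-type peaks), a choice of chromosomes made after the counts were seen. Chromosome 11 held 6 overexpression and 21 wild-type adhesion peaks, chromosome 4 held 4 and 18, chromosome 13 held 3 and 8, and chromosome 5 held 3 and 3. The wild-type shares were 33.3%, 28.6%, 12.7% and 4.76%, against 6.81%, 6.23%, 5.63% and 11.1% of all wild-type peaks, so chromosome 5 was below its background. CNTN5 and LRRC4C had 12 and 6 of the 21 peaks on chromosome 11, and FAT4 and TENM3 had 10 and 4 of the 18 peaks on chromosome 4. In the stretches that hold them, wild-type peaks of any gene numbered 7.02 per Mb at CNTN5 and 9.22 at LRRC4C, against 2.45 over chromosome 11, and 7.97 per Mb at FAT4, against 1.62 over chromosome 4. Each stretch runs from its first to its last peak, so these densities are high by construction. The same stretches held 1, 0 and 1 overexpression peaks. CNTN5 and FAT4 had ranks 3 and 5 among 2142 gene symbols by number of wild-type peaks outside promoters. Both were picked because they stood out in these same lists, so the ranks are no independent result. Inside the genes lay 6 of the 12 CNTN5 peaks and 1 of the 10 FAT4 peaks.

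Partner genes outside the group were looked at by the same counts, to be read against the promoter peaks at 33.9% (overexpression) and 7.40% (wild type) of all protein-coding genes. With 17 to 33 genes a list, the wild-type promoter counts are too small to be set apart from that share. Of 18 catenin and desmosome genes, 5 had overexpression promoter peaks and 0 had wild-type ones, with CTNND1 (p120 catenin, fold 11.4) and CTNNB1 (beta-catenin, 10.48) highest in the overexpression list. Of 33 synaptic partner genes, 4 had an overexpression promoter peak, DLG4 (9.96), SLITRK5 (8.04) and CASK (6.81) among them, and 1 had a wild-type one. These 33 had 4 overexpression and 16 wild-type peaks outside promoters, and SLITRK1 alone had 0 overexpression and 8 wild-type peaks of any class. Of 17 immunoglobulin adhesion genes, 1, CADM1 (6.29), had an overexpression promoter peak and none had a wild-type one. They had 2 overexpression and 18 wild-type peaks outside promoters, with NEGR1 (0 overexpression and 7 wild-type peaks) and NTM (1 and 6) most often hit. Among the 20 other long genes, promoter peaks were listed at 2 in each library. Outside promoters these genes had 1 overexpression and 14 wild-type peaks, in 1 and 8 genes. Peaks outside promoters numbered 1480 in the whole overexpression list and 3089 in the whole wild-type list. The partner lists thus shared their direction, more wild-type than overexpression peaks, with the whole lists. In proportion the gap was wider in the synaptic (16 against 4), immunoglobulin (18 against 2) and long-gene (14 against 1) lists. The catenin and desmosome list had 2 wild-type and 1 overexpression peaks outside promoters. Whether these lists differed from that background was not tested.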

How the data were processed

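Acetyl-H3 ChIP-seq peak lists of 1 AIMP1 overexpression and 1 wild-type H929 library were used, and the 2 input libraries were not analysed here. Per the submitters' processing notes, cutadapt, Trimmomatic, FastQC and Bowtie2 were used. How peaks were called, on which build and with what use of the inputs is not given in the sources used here. The deposited lists hold 1 library each. The columns, per the file headers, give a fold, which is a ratio computed by the authors, a p-value of the authors (at most 0.001, plain numbers), a width, a class of place, a distance to a transcript start and 1 gene. Read depth is unknown.

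The gene identifiers of all 91 member peaks matched RefSeq (GRCh38.p14). For 99.8% of peaks in each list the annotated gene position overlapped the same gene there, and for 58.6% (overexpression) and 42.8% (wild type) a boundary agreed within 10 bp, so positions were read as that build. Peaks were shared if they overlapped by at least 1 bp (bedtools 2.31.1), a step tested on simulated data. Shares have exact (Clopper-Pearson) 95% intervals. Software was Python 3.11.15 with matplotlib 3.10.9, scipy 1.17.1, numpy 2.4.6 and pandas 2.3.3. The members, lists and comparisons were chosen with earlier results of these data known. Genes named were all members with a promoter peak, the members with most other peaks, CNTN5, FAT4 and CDH9, the highest fold per family, and up to 3 per partner list. Alternatives changed the peaks used, the members, the promoter limit and the overlap.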

Additional observations from a re-analysis of the deposited data

How the results depend on the processing

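No paired analysis was possible because only 1 library stood in each arm. Limits: the lists differ in the range of the authors' folds and p-values, so a common threshold removes mostly wild-type peaks. Depth is unknown, and 1 gene is given per peak. The overexpression list kept the higher promoter share under each alternative that gave both values, and the larger number of wild-type peaks outside promoters held except at p of at most 1e-05 (equal numbers) and among peaks whose fold reached 6.11, the median of all peaks pooled. There 6 overexpression and 1 wild-type adhesion peaks outside promoters were left, a wild-type promoter share of 50% (1 of 2 peaks), and 0 genes in both lists by promoter or by any peak (the overexpression peaks of PCDH9 and CNTN5, folds 4.91 and 4.39, fell below that limit), 2 in the wild-type list only by any peak, and 0.0% shared in either list. With p of at most 1e-05 4 overexpression and 4 wild-type peaks lay outside promoters, promoter shares were 78.9% and 20.0%, and 20.0% of wild-type peaks were shared (1 of 5). Genes by promoter peak were then 1 (both lists) and 0 (wild type only), and by any peak 3 (both) and 2 (wild type only). With lists of equal length (4828 peaks) the overexpression promoter share was 83.3% (10 of 12) with 2 overexpression peaks outside promoters. Genes by promoter peak were 1 (both lists) and 2 (wild type only), genes by any peak 7 (overexpression only) and 4 (both), and 0.0% of peaks were shared in either list. Promoters within 1 kb gave 1 gene in both lists and 0 in the wild-type list only. Without LRRC40 to LRRC49 the genes were 0 in the wild-type list only by promoter peak, and 7 in the overexpression list only by any peak. Without CNTN5 and FAT4, chosen after seeing the data, 38 of 60 wild-type adhesion peaks away from promoters were left, and the promoter shares were 57.7% and 7.32%. Genes with a promoter peak by the annotation, a measure added after the gaps among the start windows were seen, gave 8.13% and 1.63% of adhesion genes, against 3.0% and 1.0% by window. Inside RefSeq spans CNTN5 had 6 and FAT4 1 wild-type peaks. Counting peaks as shared at 50% overlap or within 1 kb, promoters within 3 kb by distance, protein-coding members only, and leaving out chromosomes 5 and 13 kept the values they bear on within their intervals or within 1.5 times.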
